A study of Homo sapiens with 4 samples.

Results

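The ADAM (a disintegrin and metalloprotease), ADAMTS (ADAM with thrombospondin repeats) and ADAMTSL (ADAMTS-like) genes form one gene family, taken here as every row of the deposited expression table whose gene name is ADAM, ADAMTS or ADAMTSL followed by a number. The names matched 48 rows, and where a symbol was repeated (ADAMTS10 and ADAMTS13) the row with the higher mean was kept. This left 46 members of 57659 listed genes, made up of 22 ADAM, 19 ADAMTS and 5 ADAMTSL genes. Of these, 23 had values high enough to test among 15640 tested genes, and the other 23 were at or near 0 counts.

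The RNA came from 786-0 cells, an established human renal cell carcinoma line, after transfection with siRNA against SLFN5 (2 libraries) or with control siRNA (2 libraries). The title of the series ties SLFN5, a member of the Schlafen family, to motility and invasion of such cells. The sources used here do not give the siRNA sequences or the time after transfection. Whether the 2 libraries of a group stem from different cultures is not stated in the labels either, so the p-values measure a spread that may be technical. The series describes triplicates, and the values below rest on 4 libraries. Values are equalised counts, read counts that the authors adjusted to 1 common library size, and the counts recovered behind them summed to 17117659 and 14700669 in the SLFN5 siRNA libraries, against 31905328 and 13187517 in the control libraries. SLFN5 itself stood at 167 and 118 equalised counts with SLFN5 siRNA, against 420.3 and 353 with control siRNA (log2 change -1.45, SE 0.21, limma adjusted p = 0.000524). The cells carried the kidney lineage factor PAX8 (3994 and 3392 equalised counts with SLFN5 siRNA, 4129 and 3726 with control siRNA) and the keratin KRT8, whereas CA9 and NDUFA4L2, markers of many clear cell carcinomas, were too low to test. Of 9 kidney and renal carcinoma markers, 7 were tested, and 42.9% of these were called (limma adjusted p under 0.05), against 29.6% of all tested genes. LHX1 was higher after SLFN5 siRNA (log2 change 1.14, SE 0.18, limma adjusted p = 0.000770), as was EPAS1 (0.55, SE 0.18, limma adjusted p = 0.0358). VIM was lower (-0.46, SE 0.12, limma adjusted p = 0.0140). None of the leukocyte and endothelial markers looked at reached the test, and PTPRC, CD3E, LYZ and PECAM1 had at most 1 count each over the 4 libraries. CD14 had 2 and 2 counts with SLFN5 siRNA and 9 and 6 with control siRNA, and KDR had 6 and 9 with SLFN5 siRNA and 9 and 6 with control siRNA. Of 4 fibroblast markers, 3 were tested and 0 called, against 29.6% of all tested genes, with DCN at 1 count. LUM, the fibroblast marker with the most counts, had 45.9 and 27.2 equalised counts with SLFN5 siRNA and 90.7 and 53.98 with control siRNA; these did not overlap, and the log2 change of -0.96 (SE 0.38) did not pass (limma adjusted p = 0.0789). COL1A1 had 48.0 and 31.8 equalised counts with SLFN5 siRNA and 64.7 and 31.0 with control siRNA, with overlap. PDGFRA had 10.2 and 14.96 with SLFN5 siRNA and 6.59 and 11.1 with control siRNA. The part of these kidney and fibroblast markers in the results below was not tested.

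ADAM proteins are membrane-anchored: a metalloprotease domain cuts other membrane proteins close to the cell surface, which releases growth factors, cytokine receptors and adhesion molecules, a process called ectodomain shedding. ADAMTS proteins are secreted and carry thrombospondin repeats, and they cut proteoglycans, procollagens, fibrillin and von Willebrand factor in the extracellular matrix and blood. ADAMTSL proteins have the repeats but no protease domain and bind the matrix. In most of the proteases, 3 histidines hold a zinc ion and a glutamate beside the first of them takes part in catalysis.

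The coding sequence of this zinc site is shown because it holds the residues that the proteases need to cut. The results are ordered by the known roles of the members, which were assigned apart from this search. The search used the longest coding transcript of each gene in the GENCODE v29 basic set (GRCh38). It looked for 33 bases, 5′ to 3′ on the coding strand, that spell histidine, glutamate, any 2 residues, histidine, any 2 residues, glycine or asparagine, any 2 residues, histidine. Capitals mark the codons of the 3 histidines and the glutamate. In the catalytic ADAM genes with a change past the threshold it read as follows.
ADAM15: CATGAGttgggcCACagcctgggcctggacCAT
ADAM19: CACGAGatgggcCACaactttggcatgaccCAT
ADAM10: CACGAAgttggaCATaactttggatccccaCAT
ADAM17: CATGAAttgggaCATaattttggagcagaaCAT
ADAM12: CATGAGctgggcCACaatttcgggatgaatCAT
These lie at chr1:155056995-155057027 (plus strand), chr5:157505734-157505766 (minus), chr15:58627881-58633225 (minus, with an intron inside), chr2:9510078-9510110 (minus) and chr10:126094059-126094091 (minus), all within coding exons. In the secreted ADAMTS genes that were called, and in the neighbour of ADAMTS1 that was not, the sites were these.
ADAMTS9: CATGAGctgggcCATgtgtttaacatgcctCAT
ADAMTS1: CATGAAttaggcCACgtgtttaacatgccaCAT
ADAMTS15: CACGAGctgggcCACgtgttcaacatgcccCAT
ADAMTS5: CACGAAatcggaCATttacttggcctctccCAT
ADAMTS6: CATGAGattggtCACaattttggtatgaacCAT
ADAMTS16: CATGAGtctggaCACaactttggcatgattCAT
These span chr3:64651148-64654369 (minus), chr21:26841143-26841867 (minus), chr11:130461612-130462109 (plus), chr21:26943525-26954748 (minus), chr5:65300116-65329394 (minus) and chr5:5191774-5200147 (plus), and each is split over 2 coding exons.

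The site was found in 12 of 12 ADAM genes classed as catalytic, in 0 of 8 ADAM genes classed as lacking it, in 18 of 19 ADAMTS genes and in 0 of 5 ADAMTSL genes. ADAMTS8 was the ADAMTS gene without a match to these letters. The exon structure also differed between the families: the site lay within 1 exon in 11 of 12 ADAM genes, ADAM10 being the exception, and across 2 exons in 18 of 18 ADAMTS genes. At the glycine place, 4 genes had asparagine, namely ADAMTS1, ADAMTS4, ADAMTS9 and ADAMTS15, all of the proteoglycan-cutting group. In the sequences above, ADAMTS9, ADAMTS1 and ADAMTS15 have the asparagine codon aac there and ADAMTS5 has the glycine codon ggc.

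Across the 23 tested members, 3 were higher after SLFN5 siRNA, 10 were lower and 10 did not pass (limma, Benjamini-Hochberg adjusted p under 0.05 over all tested genes). In bulk libraries such as these, less RNA per cell and fewer cells with a transcript cannot be told apart. Called members thus made up 56.5% of those tested, against 29.6% of all tested genes. The higher calls were 13% of tested members, against 13.3% of all tested genes, and the lower calls 43.5%, against 16.3%. The values of the 2 groups did not overlap in 18 members (78.3%), against 64.6% of all tested genes. The median log2 change of the tested members was -0.50, and that of all tested genes was -0.03. When library totals set the scale, the median of all tested genes moved to 0.08. Their calls moved to 2800 higher and 1823 lower, against 2086 higher and 2544 lower in the fit reported here. Thinning all libraries to the shallowest also sets the scale by library totals, so it does not show the effect of depth alone. It gave a median of 0.09 and 2404 higher and 1492 lower. The members then counted 4 higher and 8 lower with library totals, and 3 higher and 6 lower after thinning. Without the intensity trend in the fit, only ADAM15 stayed higher and only ADAMTS1, ADAMTS6 and ADAMTSL1 stayed lower. Without control siRNA 1, the deepest library, 6 members were lower. The level needed for testing was reached in 1 group alone by 4 members. These were ADAM32, ADAM8 and ADAMTSL4 in control siRNA only and ADAMTS13 in SLFN5 siRNA only. All 4 are among the 18 members without overlap, which the selection fixed for them, and a difference was partly built in. Of the other 19 members, 3 were higher, 8 lower and 8 not past the threshold.

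**Figure D1:**
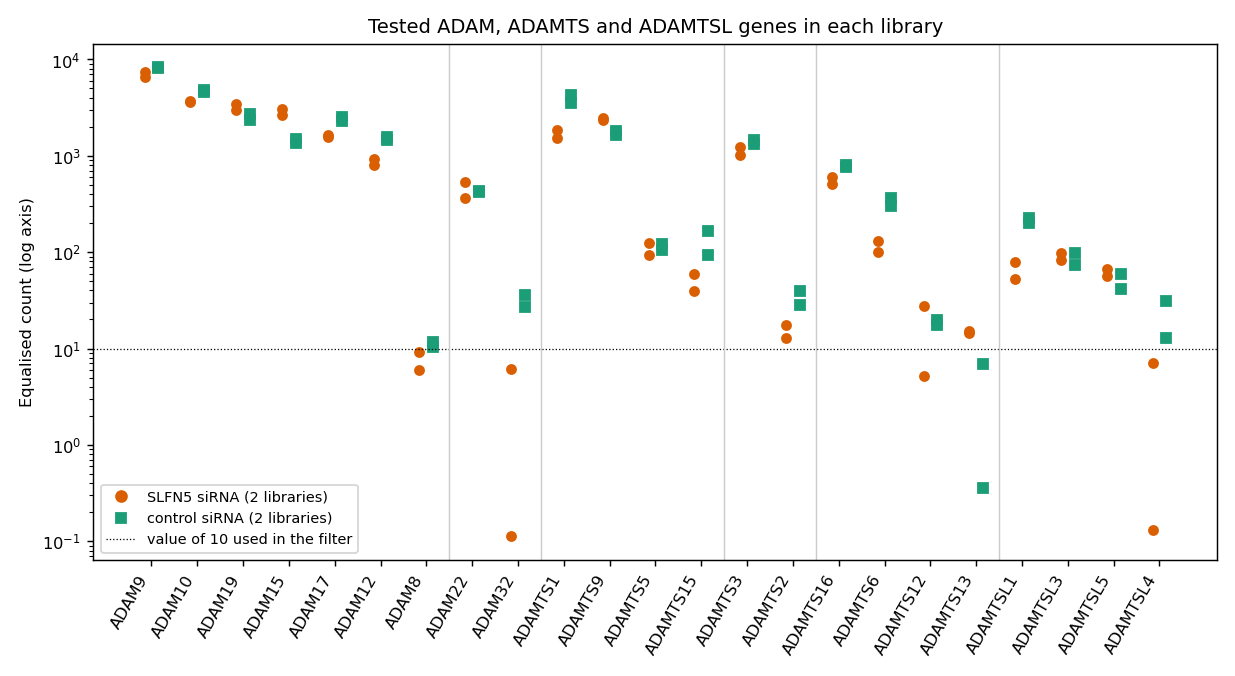
Equalised counts on a log axis of the 23 tested members in each of the 2 SLFN5 siRNA libraries (orange circles, left of each name) and 2 control siRNA libraries (green squares, right), with grey lines between the functional groups and a dotted line at the filter value of 10. ADAM15 and ADAMTS9 lie higher in both SLFN5 siRNA libraries, whereas ADAMTS1, ADAMTS6 and ADAMTSL1 lie lower, and ADAM32 and ADAMTSL4 stand near 0.1 in the SLFN5 siRNA library where they had 0 counts.

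Among the membrane-bound proteases with a zinc site, 7 of 12 were tested, of which 2 were higher and 3 lower (71.4% called, against 29.6% of all tested genes). ADAM15, an adhesion-binding sheddase with an RGD integrin-binding motif in its disintegrin domain, had 3088 and 2682 equalised counts with SLFN5 siRNA, against 1344 and 1493 with control siRNA. Both SLFN5 siRNA libraries were well above both control libraries. The means were 2885 ± 288 and 1418 ± 106 (SD, n = 2 each), a 2.03-fold difference and a log2 change of 1.02 (SE 0.12, limma adjusted p = 0.000143) that passed in all 13 alternative settings. ADAM15 was the only member called higher in each of them. ADAM19, also called meltrin beta, a sheddase of neuregulin, had 3010 and 3455 equalised counts with SLFN5 siRNA, against 2329 and 2689.9 with control siRNA. The groups did not overlap, but the gap between them was smaller than the spread inside the SLFN5 siRNA pair, and the log2 change of 0.37 (SE 0.12, limma adjusted p = 0.0419) was lost without SLFN5 siRNA 2 (adjusted p = 0.190) or without control siRNA 1 (adjusted p = 0.303).

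The 2 best-known sheddases were both lower. ADAM17, the TNF-alpha converting enzyme, which also releases several ligands of the EGF receptor, had 1626 and 1586 equalised counts with SLFN5 siRNA, against 2514 and 2321 with control siRNA. Its means of 1606 ± 28.05 and 2417 ± 137 (SD, n = 2 each) gave a log2 change of -0.59 (SE 0.11, limma adjusted p = 0.00258), a call kept without each library in turn. The library kit does not mark strand, and 12.3% of the exon bases of ADAM17 overlap IAH1 on the opposite strand, which had a log2 change of -0.19 (adjusted p = 0.262). ADAM10, the protease that makes the extracellular cut of Notch receptors after ligand binding and sheds cadherins, had 3630.3 and 3693 equalised counts with SLFN5 siRNA, against 4814 and 4639 with control siRNA. The pairs were tight and apart, with a log2 change of -0.37 (SE 0.10, limma adjusted p = 0.0205). The call was lost without SLFN5 siRNA 1 (adjusted p = 0.0632), control siRNA 1 (0.145) or control siRNA 2 (0.0931), with library totals (0.117) and after thinning (0.147).

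ADAM12, meltrin alpha, which sheds HB-EGF and occurs in many carcinomas, had 810 and 934 equalised counts with SLFN5 siRNA, against 1447 and 1561 with control siRNA. Its means were 872 ± 87.7 and 1504 ± 81.0 (SD, n = 2 each) and its log2 change -0.79 (SE 0.13, limma adjusted p = 0.000984), a call kept without each library in turn. The ratio of ADAM19 to ADAM12 per kilobase of exon was 4.66 and 4.64 in the SLFN5 siRNA libraries, against 2.02 and 2.16 in the control libraries. ADAM9, or meltrin gamma, had the highest level of the family, at 6514 and 7356 equalised counts with SLFN5 siRNA and 8266 and 8155 with control siRNA. Its SLFN5 siRNA values were both lower, but the log2 change of -0.25 (SE 0.11) did not pass (limma adjusted p = 0.112). It passed with the replicate number as a further term in the fit (limma adjusted p = 0.0136), but the labels do not say what that number marks. ADAM8, a sheddase best known from leukocytes, had 9 and 5 recovered counts with SLFN5 siRNA and 20 and 7 with control siRNA. Its equalised counts were 9.19 and 5.93 with SLFN5 siRNA and 11.7 and 10.3 with control siRNA, with a log2 change of -0.51 (SE 0.62, limma adjusted p = 0.582).

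Levels were compared between genes per kilobase of the exons in the GENCODE basic set. ADAM9 was highest in both groups, and the order below it differed between them and also changes when all annotated exons set the lengths. In SLFN5 siRNA cells ADAM9 averaged 1169 ± 100.3 equalised counts per kilobase, ADAM15 883 ± 88.0, ADAM19 459 ± 44.7, ADAM17 364 ± 6.35 and ADAMTS1 326 ± 46.2 (SD, n = 2). In control cells the averages were 1384 ± 13.3 for ADAM9, 747 ± 104.4 for ADAMTS1, 548 ± 30.9 for ADAM17, 434 ± 32.4 for ADAM15 and 356 ± 36.2 for ADAM19, and ADAM10 averaged 360.2 ± 9.42, within the spread of ADAM19. ADAM15 thus stood above ADAM17 in both SLFN5 siRNA libraries, at ratios of 2.57 and 2.28, and below it in both control libraries, at 0.722 and 0.869; since ratios of this kind depend on the exon lengths, the position relative to 1 is less firm than the difference between the groups.

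The sum over the 12 catalytic ADAM genes overlapped between the groups, at 3211 and 3301 equalised counts per kilobase with SLFN5 siRNA and 3240.1 and 3273 with control siRNA. With lengths from all annotated exons the ratio of the group means was 0.969, against 0.9998 with the basic set. Within this sum, ADAM15 made up 29.5% and 24.9% in the SLFN5 siRNA libraries, against 12.7% and 13.96% in the control libraries. The share of ADAM9 was 34.2% and 37.6% with SLFN5 siRNA, against 43.0% and 42.0% with control siRNA. ADAM17 held 11.5% and 10.9% with SLFN5 siRNA, against 17.6% and 16.1% with control siRNA. The make-up of the group therefore differed while its summed level overlapped between groups on the scale of the deposited values. Over all genes those values totalled 17500053.6 and 17078455 with SLFN5 siRNA, against 18559835.5 and 19089548.3 with control siRNA. Relative to these totals, both SLFN5 siRNA sums stood above both control sums, so the overlap depends on the scale. No test was run on the sums. The shares come from the same values as the tests above and are given as a description.

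**Figure D2:**
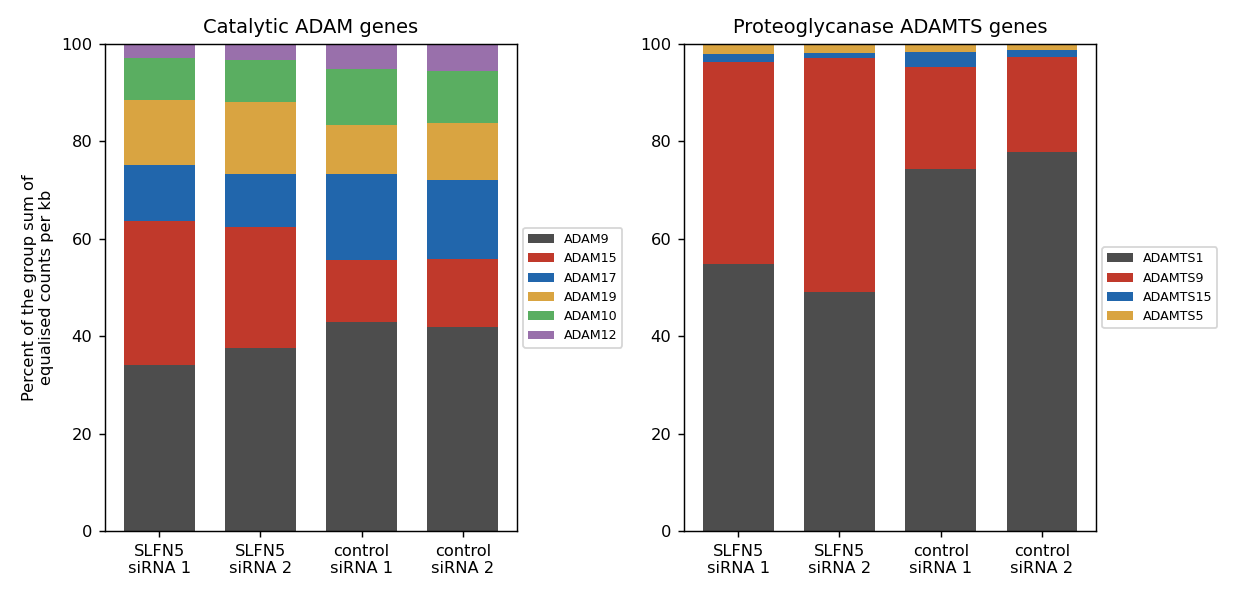
Percent of the summed equalised counts per kilobase held by each gene, in each library (SLFN5 siRNA libraries left, control siRNA libraries right), for the catalytic ADAM genes (left panel) and the proteoglycan-cutting ADAMTS genes (right panel); only genes visible at this scale are drawn. The ADAM15 segment covers 29.5% and 24.9% with SLFN5 siRNA, against 12.7% and 13.96% with control siRNA, and the ADAMTS9 segment 41.3% and 47.9%, against 20.8% and 19.5%.

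Of the 8 ADAM genes that lack the zinc site, 2 were tested. ADAM22, a receptor for the secreted protein LGI1 in neurons, had 363 and 529 equalised counts with SLFN5 siRNA and 419 and 429.8 with control siRNA. The groups overlapped and the log2 change was 0.05 (SE 0.19, limma adjusted p = 0.883). ADAM32, known mainly from testis, had 6 and 0 recovered counts with SLFN5 siRNA, against 61 and 18 with control siRNA. As equalised counts these were 6.10 and 0.112 with SLFN5 siRNA, against 36.0 and 26.8 with control siRNA. The log2 change was -3.51 (SE 0.84, limma adjusted p = 0.00870), with values of -2.18 without SLFN5 siRNA 2 and -4.85 without SLFN5 siRNA 1. The gene reached the level for testing in control siRNA only, so a difference was partly built into its selection. ADAM32 starts 1845 bases downstream of ADAM9 on the same strand of chromosome 8.

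The secreted proteases that cut large proteoglycans such as versican and aggrecan hold 7 members. Of these, 4 were tested, 1 was higher and 2 were lower (75% called, against 29.6% of all tested genes). ADAMTS1, a versican- and aggrecan-cutting enzyme that also has anti-angiogenic activity, had 1863 and 1524 equalised counts with SLFN5 siRNA, against 3495 and 4261 with control siRNA. Its means were 1693 ± 239.8 and 3878 ± 542 (SD, n = 2 each), 0.437 of the control level. The log2 change of -1.20 (SE 0.14, limma adjusted p = 0.000108) passed in all 13 alternatives. ADAMTS9, a homolog of the nematode protease GON-1, had 2348 and 2489 equalised counts with SLFN5 siRNA, against 1633 and 1789.9 with control siRNA. It was higher in both SLFN5 siRNA libraries, by 0.50 on the log2 scale (SE 0.11, limma adjusted p = 0.00703). The call was lost without control siRNA 1 and without the intensity trend.

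ADAMTS15, which cuts versican and aggrecan, was low, at 59.2 and 39.9 equalised counts with SLFN5 siRNA, against 168 and 93.8 with control siRNA. The 2 control values were far apart, and the log2 change of -1.35 (SE 0.34, limma adjusted p = 0.0110) was lost without control siRNA 1 (-0.93, adjusted p = 0.121), without SLFN5 siRNA 2 (-1.07, adjusted p = 0.0532) and after thinning (adjusted p = 0.0611). ADAMTS5, the main aggrecanase of mouse cartilage, had 124 and 94.5 equalised counts with SLFN5 siRNA and 122 and 105 with control siRNA, with overlapping groups and a log2 change of -0.06 (SE 0.25, limma adjusted p = 0.884). ADAMTS5 and ADAMTS1 are neighbours on chromosome 21, 72.5 kb apart on the same strand with no coding gene between them.

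Per kilobase, the proteoglycan-cutting group summed to 653 and 597 equalised counts with SLFN5 siRNA, against 905 and 1055 with control siRNA, a ratio of the means of 0.638 (0.654 with all annotated exons). ADAMTS1 held 54.9% and 49.1% of this sum in the SLFN5 siRNA libraries, against 74.4% and 77.8% in the control libraries. ADAMTS9 held 41.3% and 47.9% with SLFN5 siRNA, against 20.8% and 19.5% with control siRNA. The ratio of ADAMTS9 to ADAMTS1 per kilobase was 0.752 and 0.975 with SLFN5 siRNA, against 0.279 and 0.251 with control siRNA. The other 3 members, ADAMTS4, ADAMTS8 and ADAMTS20, had 2, 7 and 0 counts over all 4 libraries.

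The procollagen proteases remove the amino-terminal propeptide of fibrillar collagens, and 0 of the 2 tested members passed, against 29.6% of all tested genes. ADAMTS3, which also activates the lymphatic growth factor VEGFC, had 1029 and 1243 equalised counts with SLFN5 siRNA and 1331 and 1459.9 with control siRNA (log2 change -0.30, SE 0.13, limma adjusted p = 0.112). The log2 change was -0.44 without SLFN5 siRNA 2. ADAMTS3 passed with the replicate number as a further term in the fit (limma adjusted p = 0.0135), but the labels do not say what that number marks. ADAMTS2, the main procollagen I N-proteinase, was low, at 17.4 and 12.9 equalised counts with SLFN5 siRNA and 28.4 and 39.7 with control siRNA. Its log2 change was -1.11 (SE 0.45, limma adjusted p = 0.0833). In both genes the groups did not overlap and both SLFN5 siRNA values were the lower ones.

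Of the 9 other ADAMTS genes, 4 were tested, 0 were higher and 2 were lower (50% called, against 29.6% of all tested genes). ADAMTS6, a protease that can act on fibrillin and latent TGF-beta binding proteins and is required for heart development in mice, had 101 and 129.7 equalised counts with SLFN5 siRNA, against 303 and 362 with control siRNA. Both SLFN5 siRNA values lay far below both control values: the means were 115 ± 20.1 and 332 ± 42.1 (SD, n = 2 each), 0.348 of the control level. The log2 change of -1.52 (SE 0.21, limma adjusted p = 0.000366) passed in all 13 alternatives. ADAMTS16, a protease expressed in kidney and gonads, had 509 and 600.3 equalised counts with SLFN5 siRNA, against 769 and 794 with control siRNA. The log2 change was -0.50 (SE 0.14, limma adjusted p = 0.0216), and the call was lost without SLFN5 siRNA 1 (adjusted p = 0.0998), control siRNA 1 (0.0672) or control siRNA 2 (0.121), with library totals (0.0707) and after thinning (0.0956).

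The other 2 tested genes of this group were near the limit of detection. ADAMTS12, which cuts cartilage oligomeric matrix protein, had 27 and 4 recovered counts with SLFN5 siRNA and 34 and 12 with control siRNA. Adjusted for depth, its equalised counts were 27.5 and 5.22 with SLFN5 siRNA and 19.9 and 17.6 with control siRNA, with overlap. The log2 change of ADAMTS12 was -0.57 (SE 0.68, limma adjusted p = 0.576). Its direction depended on the library kept, with -1.67 without SLFN5 siRNA 1 and 0.53 without SLFN5 siRNA 2. ADAMTS13, the plasma protease that trims von Willebrand factor, had 14 and 13 recovered counts with SLFN5 siRNA and 11 and 0 with control siRNA. As equalised counts these were 14.3 and 15.1 with SLFN5 siRNA and 6.93 and 0.358 with control siRNA, and the log2 change of 2.26 (SE 0.88) did not pass (limma adjusted p = 0.0738). It was 3.53 without control siRNA 1, where it passed (adjusted p = 0.0105), and 0.99 without control siRNA 2 (adjusted p = 0.494). It also passed with limma-voom on the recovered counts (adjusted p = 0.0452 with TMM scaling and 0.0286 with library totals), and with the replicate number as a further term.

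Of the 5 ADAMTSL genes, 4 were tested, 0 were higher and 2 were lower (50% called, against 29.6% of all tested genes). ADAMTSL1, or punctin, a secreted matrix glycoprotein, had 52.2 and 79.6 equalised counts with SLFN5 siRNA, against 199 and 227 with control siRNA. Its means were 65.9 ± 19.4 and 213 ± 19.6 (SD, n = 2 each), 0.307 of the control level, and the log2 change of -1.70 (SE 0.26, limma adjusted p = 0.000703) passed in all 13 alternatives. ADAMTSL4, a fibrillin-binding protein tied to lens dislocation in humans, had 7 and 0 recovered counts with SLFN5 siRNA, against 51 and 8 with control siRNA. It reached the level for testing in control siRNA only, so its lower direction was partly built into the selection. Its log2 change of -2.80 (SE 0.93, limma adjusted p = 0.0401) rested on these few counts: the value was -1.38 without SLFN5 siRNA 2 (adjusted p = 0.163), -2.21 without control siRNA 1 (adjusted p = 0.223) and -4.23 without SLFN5 siRNA 1, and the call was also lost after thinning (adjusted p = 0.0897). Its exons share 11.4% of their bases with the antisense gene ADAMTSL4-AS1, and without strand the reads of the 2 cannot be told apart. ADAMTSL3 and ADAMTSL5 did not pass, with log2 changes of 0.08 (SE 0.27, limma adjusted p = 0.863) and 0.29 (SE 0.32, limma adjusted p = 0.544) and overlapping groups in both.

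**Figure D3:**
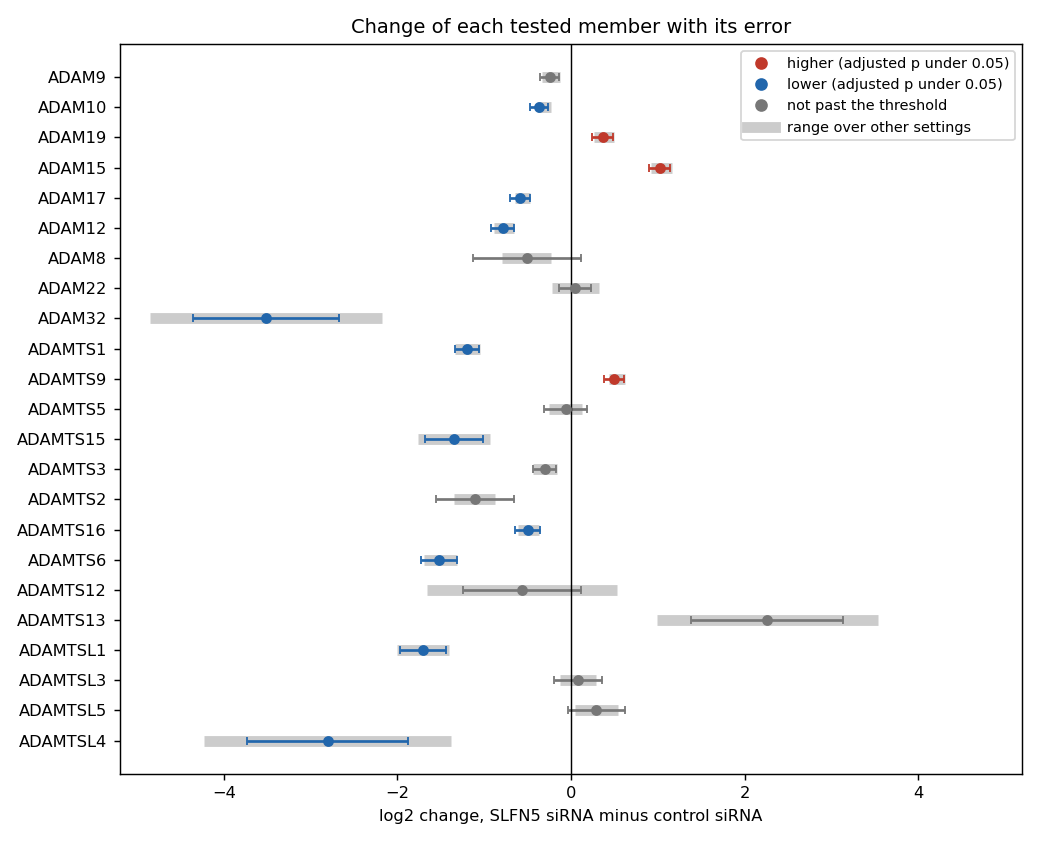
log2 change (SLFN5 siRNA minus control siRNA, horizontal axis) of each tested member with its standard error (bars), coloured by the limma call, over the range of values in the other settings (grey band). ADAM15, ADAM19 and ADAMTS9 are the 3 members called higher; the grey band is wide for ADAM32, ADAMTSL4, ADAMTS12 and ADAMTS13, which rest on few counts.

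The untested members had few or no reads. Of these 23, 8 had 0 counts in all 4 libraries, namely ADAM2, ADAM5, ADAM6, ADAM20, ADAM23, ADAM30, ADAM33 and ADAMTS20. A count of 0 here allows a share of up to 3 of the 76911173 counts in all (counting error only). The other 15 had between 2 and 26 counts over the 4 libraries.

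The proteases depend on other proteins, so a list of partners was read beside them. This list and those below were chosen with earlier results of these data known, so their called shares are given as a description. Of 13 genes that traffic or steer ADAM10 and ADAM17 or cut their propeptides, 12 were tested, 2 were higher and 2 lower, with a median log2 change of 0.24, against -0.03 for all tested genes. The called share of 33.3% was near the 29.6% of all tested genes. TSPAN5, a tetraspanin that carries ADAM10 to the surface, had 304 and 257 equalised counts with SLFN5 siRNA, against 575 and 566 with control siRNA. Both SLFN5 siRNA values lay far below both control values, with a log2 change of -1.03 (SE 0.16, limma adjusted p = 0.000751). FRMD8, also called iTAP, which holds ADAM17 and its rhomboid partners at the surface, was lower by a log2 change of -0.49 (SE 0.16, limma adjusted p = 0.0347). Its call was lost without SLFN5 siRNA 2 or control siRNA 1, with library totals, after thinning and without the intensity trend. The rhomboid partners themselves, iRhom1 (RHBDF1) and iRhom2 (RHBDF2), which bring ADAM17 out of the endoplasmic reticulum, were higher, with log2 changes of 0.56 (SE 0.19, limma adjusted p = 0.0411) and 0.47 (SE 0.12, limma adjusted p = 0.0148). RHBDF1 was lost without SLFN5 siRNA 1 or control siRNA 2, with TMM scaling of the recovered counts and without the intensity trend. RHBDF2 was lost without SLFN5 siRNA 1, control siRNA 1 or control siRNA 2, and without the intensity trend.

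Of 8 inhibitors of these proteases and their clearance receptor, 5 were tested, 3 were higher and 0 lower, with a median log2 change of 0.68. The higher calls were thus 60% of those tested, against 13.3% of all tested genes, and none of them passed without the intensity trend (adjusted p = 0.0864 to 0.115). TIMP1 and RECK were tested and did not pass, with log2 changes of 0.16 (SE 0.14, limma adjusted p = 0.411) and -0.50 (SE 0.21, limma adjusted p = 0.0977). PAPLN, the papilin gene, whose insect product inhibits an ADAMTS protease, had 886 and 618 equalised counts with SLFN5 siRNA, against 432 and 266 with control siRNA (log2 change 1.12, SE 0.23, limma adjusted p = 0.00376). LRP1, the endocytic receptor that takes up several ADAMTS proteases, had 517 and 295 equalised counts with SLFN5 siRNA, against 213 and 154 with control siRNA. Its SLFN5 siRNA values were both higher but unlike each other, and the log2 change of 1.11 (SE 0.26, limma adjusted p = 0.00798) was 0.70 without SLFN5 siRNA 1 (adjusted p = 0.0676). TIMP2, an inhibitor of matrix metalloproteases, had a log2 change of 0.68 (SE 0.14, limma adjusted p = 0.00405). TIMP3, the tissue inhibitor known to act on ADAM17 and the aggrecanases, had 2 counts with SLFN5 siRNA and 0 with control siRNA.

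The list of EGF receptor family ligands released by ADAM proteases held 8 genes, 6 of them tested, with 3 higher, 1 lower and a median log2 change of 1.12; called genes were 66.7% of those tested, against 29.6% of all tested genes. TGFA, whose product is released by ADAM17, had 11764 and 11635 equalised counts with SLFN5 siRNA, against 1815 and 1442 with control siRNA. The groups were far apart, at a 7.23-fold difference and a log2 change of 2.85 (SE 0.12, limma adjusted p = 3.95e-07). EREG, the epiregulin gene, had 5332 and 6178 equalised counts with SLFN5 siRNA, against 2867 and 2631 with control siRNA (log2 change 1.06, SE 0.12, limma adjusted p = 8.61e-05). HBEGF, whose product is also shed by ADAM17 and ADAM12, went the other way, with 266 and 306 equalised counts with SLFN5 siRNA, against 1058 and 1626 with control siRNA (log2 change -2.20, SE 0.19, limma adjusted p = 2.47e-05). EGF had a log2 change of 1.17 (SE 0.30, limma adjusted p = 0.0130), lost without SLFN5 siRNA 2 (adjusted p = 0.0702) or control siRNA 2 (adjusted p = 0.0813).

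Of 25 other membrane proteins known to be shed, 21 were tested, 2 were higher and 6 lower, with a median log2 change of 0.01; called genes were 38.1% of those tested, against 29.6% of all tested genes. F11R, the junctional adhesion molecule A, had 3326 and 3353 equalised counts with SLFN5 siRNA, against 1271 and 997 with control siRNA (log2 change 1.57, SE 0.13, limma adjusted p = 1.88e-05). SDC1, the heparan sulfate proteoglycan syndecan-1, was the other higher gene (log2 change 0.94, SE 0.11, limma adjusted p = 0.000136). The stress ligands of the NKG2D receptor, MICB and MICA, were both lower, with log2 changes of -1.04 (SE 0.18, limma adjusted p = 0.00136) and -0.87 (SE 0.12, limma adjusted p = 0.000288); the 2 genes are near copies of each other, so reads may have been split between them. NOTCH2, a receptor cut by ADAM10, had 6357 and 5638 equalised counts with SLFN5 siRNA, against 10780.4 and 9933 with control siRNA (log2 change -0.79, SE 0.11, limma adjusted p = 0.000386).

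Few matrix substrates of ADAMTS proteases were expressed: 5 of 16 were tested, with 1 higher, 1 lower and a median log2 change of 0.13 (40% called, against 29.6% of all tested genes). THBS1, thrombospondin 1, which ADAMTS1 can cut, had 2861 and 2438 equalised counts with SLFN5 siRNA, against 14675 and 15289 with control siRNA (log2 change -2.50, SE 0.11, limma adjusted p = 4.21e-07). FBN1, fibrillin 1, was higher by a log2 change of 1.00 (SE 0.28, limma adjusted p = 0.0188), lost without SLFN5 siRNA 2 (adjusted p = 0.0907) or control siRNA 1 (adjusted p = 0.114). VCAN, the versican gene and the only proteoglycan of the list with values high enough to test, had 13322 and 10812.9 equalised counts with SLFN5 siRNA and 11849 and 10156 with control siRNA, with overlapping groups (log2 change 0.13, SE 0.13, limma adjusted p = 0.494). Of 4 enzymes that put sugars on thrombospondin repeats, 4 were tested, 1 was higher and 0 lower, with a median log2 change of -0.01 (25% called, against 29.6% of all tested genes). The higher one was POFUT2, the fucosyltransferase that secretion of several ADAMTS proteins needs (log2 change 0.46, SE 0.13, limma adjusted p = 0.0186), lost without SLFN5 siRNA 1 (adjusted p = 0.0511) or control siRNA 2 (adjusted p = 0.186).

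**Figure D4:**
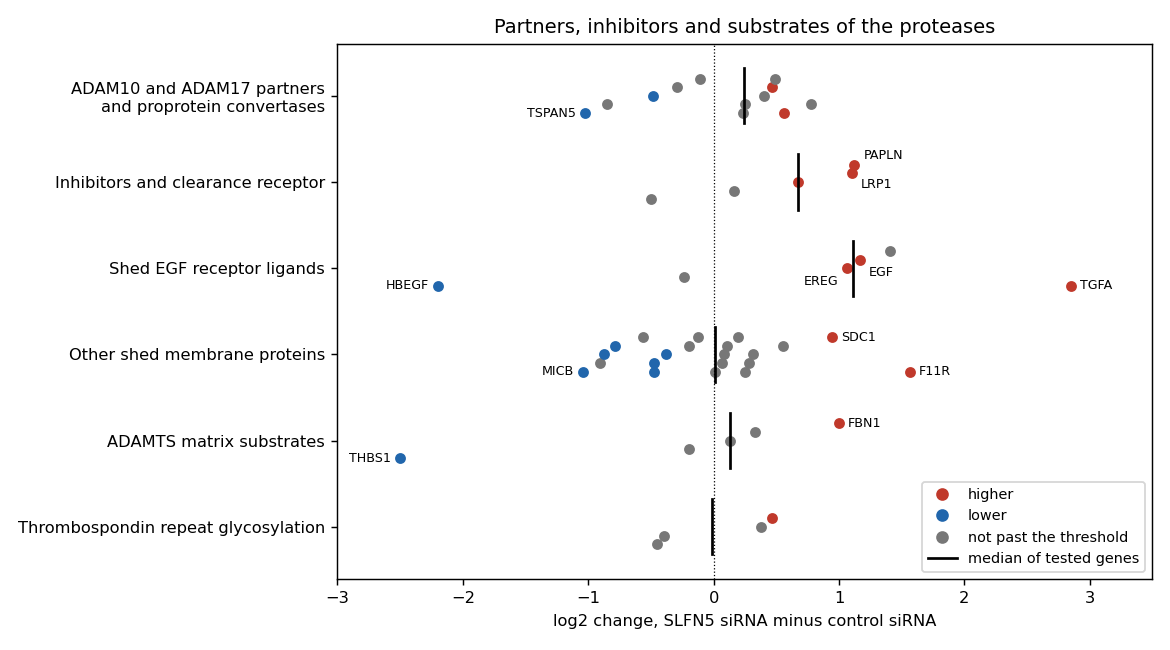
log2 change (SLFN5 siRNA minus control siRNA, horizontal axis) of every tested gene in 6 lists of partners, inhibitors and substrates, with the median of each list as a black line and colours for the limma call. TGFA at 2.85 and HBEGF at -2.20 lie at opposite ends of the ligand list, and THBS1 at -2.50 is the lowest value drawn.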

How the data were processed

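RNA-seq measured gene expression in 4 libraries of 786-0 cells, read as single ends after poly(A) selection with a TruSeq v2 kit, per the labels' protocols; the kit does not mark strand. Per the submitters' processing notes, the authors used edgeR and hg19; an aligner, counter or annotation is not given in the sources used here. What the authors deposited is a signal for each gene, not whole counts, in the form of edgeR pseudo-counts, with a common dispersion of 0.0162. Inverting that adjustment returned whole counts for 100% of 230636 values (relative tolerance 1e-06). The planned count test was replaced by limma 3.58.1 (R 4.3.3) on log2(value + 1) with group as the only term, an intensity trend, a threshold of 0.05 and Benjamini-Hochberg adjustment over the 15640 genes with a value of at least 10 in at least 2 libraries; this scale understates the change of low genes. The script was tested on simulated data. Alternatives were pseudocounts of 0.5 and 5, filters of 1 and 30, limma-voom on recovered counts, thinning, no trend, a replicate block and leaving out each library. Members and gene lists were chosen with earlier results of these data known. Every tested member is named, and of each list up to 3 called genes per direction by size of change. Gene locations, lengths and sequences are from GENCODE v29 (GRCh38), matched by Ensembl ID; the ID of ADAM6 had no match. Levels between genes are per kilobase.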

Additional observations from a re-analysis of the deposited data

How the results depend on the processing

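Without the intensity trend, 1182 genes were called, with 1 member higher and 3 lower, and 4 genes of the 6 related lists higher and 5 lower. This compares with 4630 genes, 3 and 10 members, and 12 and 10 list genes in the fit reported. The list genes called higher without the trend were TGFA, EREG, F11R and SDC1. Leaving out each library in turn gave 2934 to 4084 called genes, 2 to 3 members higher and 6 to 9 lower; an arm left with 1 library is there assumed to vary like the other arm. Thinning to the shallowest library, which also scales by library totals, left 6 members lower. The titles give the codes S371 and S374 to 1 library of each group, matching replicates 1 and 2, but the labels do not say what they mark, and the deviations of same-numbered libraries correlated at 0.19 in 2 pairs. With the number as a replicate block, 6703 genes were called, with 4 members higher and 12 lower and 19 list genes higher and 16 lower; the added members were ADAM9, ADAMTS3 and ADAMTS13 (adjusted p = 0.0136, 0.0135 and 0.0318). ADAM15, ADAMTS1, ADAMTS6 and ADAMTSL1 passed in all 13 alternatives. ADAM12, ADAM17 and ADAM32 were lost only without the trend (limma adjusted p = 0.0569, 0.0693 and 0.0898). ADAM10, ADAM19, ADAMTS9, ADAMTS15, ADAMTS16 and ADAMTSL4 were lost there too, besides the settings named with each gene. No called member changed direction in an alternative that tested it. Depth limits ADAM32, ADAMTSL4, ADAM8, ADAMTS12 and ADAMTS13, which rest on at most 85 counts each over the 4 libraries.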

Other observations

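Untested members were read as counts over the libraries, and only some of the 15 with any count are named. ADAM18, a sperm protein gene on chromosome 8, had 6 and 2 recovered counts with SLFN5 siRNA and 0 and 0 with control siRNA. ADAMTS17, a fibrillin-associated protease tied to short stature in humans, had 5 and 4 counts with SLFN5 siRNA and 3 and 0 with control siRNA. ADAMTS18 had 3 and 2 counts with SLFN5 siRNA and 7 and 5 with control siRNA, and ADAMTS14 had 1 and 0 with SLFN5 siRNA and 4 and 1 with control siRNA. ADAM11, a brain ADAM without the zinc site and the untested member with the most counts, had 2 and 11 counts with SLFN5 siRNA and 10 and 3 with control siRNA. ADAMTS7 had 7 and 1 counts with SLFN5 siRNA and 9 and 1 with control siRNA, and ADAM21 had 0 and 4 with SLFN5 siRNA and 3 and 0 with control siRNA. None of these genes reached the level needed for a test, and the depths of the libraries differ, so no direction is read from them.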
